A study of Mus musculus with 6 samples.

Results

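The genes described here encode the nuclear subunits of the mitochondrial respiratory chain and ATP synthase. Members were the RefSeq protein-coding genes of chromosomes 1 to 19 and X whose symbols begin with Nduf followed by a, b, c, s or v, with Uqcr, with Cox and a digit from 4 to 8, or with Atp5, plus Sdha, Sdhb, Sdhc and Sdhd. This gave 96 of 21631 protein-coding genes: 39 of complex I, 4 of complex II, 8 of complex III, 20 of complex IV, 17 of ATP synthase and 8 assembly factors of complex I (Ndufaf1 to Ndufaf8). Ndufa4 and Ndufa4l2 carry complex I names but were counted with complex IV, of which Ndufa4 is now known to be a subunit. Another 19 genes with matching symbols are annotated as pseudogenes on these chromosomes, and none of them was marked in any library.

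Acetylation of lysine 27 on histone H3 (H3K27ac), which marks active enhancers and promoters, was mapped by CUT&RUN, in which an antibody directs a nuclease to cut out the chromatin it binds. The nuclei came from left ventricles of 8 to 12 week old FVB mice and were sorted with an antibody to PCM-1, a protein at the envelope of cardiomyocyte nuclei. The 3 libraries labelled WT were compared with 3 labelled HOM, from the double knockout of Nppa and Nppb, which encode the atrial and B-type natriuretic peptides. The labels give all 6 libraries the same strain, age and tissue and do not say whether the libraries came from separate mice. The shared breeding text also names Myh6-MerCreMer, nTnG and Sun1/sfGFP mice without saying which libraries, if any, carried these alleles.

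The respiratory chain passes electrons from NADH through complex I, or from succinate through complex II, to complex III and then to oxygen at complex IV, while protons are pumped across the inner mitochondrial membrane. ATP synthase uses their return flow to make ATP. Most subunits are encoded in the nucleus, and the heart, which beats without pause, depends on this supply of ATP. In heart and skeletal muscle a few subunits of complex IV exist as muscle isoforms, encoded by Cox6a2, Cox7a1 and Cox8b, beside the widely expressed Cox6a1, Cox7a2 and Cox8a.

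A gene was called marked in a library when a called peak overlapped the 1 kb on either side of one of its annotated ends by at least 1 bp. Covered length is the number of bp under peaks in those windows. At 58 of the 96 members these windows touch another protein-coding gene, so covered length can include peaks of a neighbour. Values in threes are those of replicates 1, 2 and 3, in that order. The peak lists held 21340, 72362 and 106605 peaks for WT and 48102, 1462 and 15184 for HOM. They contain no read counts, so the depth of the libraries is unknown. HOM replicate 2 stood apart, with its peaks at the ends of 83 genes (0.384% of all protein-coding genes) and of no member, so values that include it are given without it as well. As a check of the sorted cell type, 9, 10 and 10 of 10 cardiomyocyte genes were marked for WT and 10, 0 and 8 for HOM. None of 5 fibroblast marker genes had a peak at its ends or over its body in any library. None of 5 endothelial marker genes was marked at its ends, but with peaks over the gene body counted 1, 2 and 3 of them had one for WT and 1, 0 and 1 for HOM. Of the other markers, 2 of 4 mural genes were marked in each of 4 libraries and 1 in HOM replicate 3, and at most 2 of 4 immune genes were marked in any library. With the gene body counted, 2, 3 and 4 of the 4 mural genes had a peak for WT and 2, 0 and 2 for HOM. In such bulk preparations, fewer nuclei with the mark and less acetylation per nucleus cannot be told apart.

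Promoter stretches of 6 members are shown first, because the results turn on where peaks lay relative to the start site and on how the muscle isoform genes differed from the rest. For each complex the member is the one marked in most libraries, with ties settled by the height of its peaks, among those for which the RefSeq promoter table (GRCm38.p6) has an entry. Cox7a1 was added as a second muscle isoform gene. Each run is the 250 bases before the start site, 5′ to 3′ on the strand of the gene, from the reference genome and not from the FVB mice, and capitals mark CpG dinucleotides, the site of DNA methylation.
Ndufb4, complex I, chr16:37654369-37654618, minus strand, with 21 CpG.
Ndufb4: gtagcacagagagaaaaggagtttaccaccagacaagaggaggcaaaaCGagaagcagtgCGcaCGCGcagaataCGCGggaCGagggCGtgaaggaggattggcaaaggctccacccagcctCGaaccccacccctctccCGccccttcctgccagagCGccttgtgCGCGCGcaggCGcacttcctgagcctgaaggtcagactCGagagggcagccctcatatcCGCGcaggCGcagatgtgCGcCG
Sdhb, complex II, chr4:140961021-140961270, plus strand, with 9 CpG.
Sdhb: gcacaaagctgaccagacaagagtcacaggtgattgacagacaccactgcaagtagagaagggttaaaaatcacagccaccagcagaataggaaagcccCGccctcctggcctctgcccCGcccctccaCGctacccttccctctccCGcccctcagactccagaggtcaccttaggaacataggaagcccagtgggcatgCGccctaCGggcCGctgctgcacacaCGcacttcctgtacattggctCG
Uqcr10, complex III, chr11:4704345-4704594, minus strand, with 5 CpG.
Uqcr10: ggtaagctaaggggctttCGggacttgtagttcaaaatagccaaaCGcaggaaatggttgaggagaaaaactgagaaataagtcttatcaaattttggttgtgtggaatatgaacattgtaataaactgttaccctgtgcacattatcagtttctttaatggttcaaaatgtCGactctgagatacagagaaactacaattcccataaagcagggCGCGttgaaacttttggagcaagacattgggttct
Cox8b, complex IV, chr7:140900447-140900696, minus strand, with 1 CpG.
Cox8b: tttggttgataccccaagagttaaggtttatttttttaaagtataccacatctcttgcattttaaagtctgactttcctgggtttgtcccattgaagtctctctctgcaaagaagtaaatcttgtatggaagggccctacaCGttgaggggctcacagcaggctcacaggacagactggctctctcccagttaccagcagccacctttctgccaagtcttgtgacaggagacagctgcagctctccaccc
Cox7a1, complex IV, chr7:30183921-30184170, plus strand, with 4 CpG.
Cox7a1: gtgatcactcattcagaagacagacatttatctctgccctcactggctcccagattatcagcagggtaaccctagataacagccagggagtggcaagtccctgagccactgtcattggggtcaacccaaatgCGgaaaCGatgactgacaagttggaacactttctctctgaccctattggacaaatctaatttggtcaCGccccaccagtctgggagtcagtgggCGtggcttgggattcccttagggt
Atp5c1, ATP synthase, chr2:10080511-10080760, minus strand, with 18 CpG.
Atp5c1: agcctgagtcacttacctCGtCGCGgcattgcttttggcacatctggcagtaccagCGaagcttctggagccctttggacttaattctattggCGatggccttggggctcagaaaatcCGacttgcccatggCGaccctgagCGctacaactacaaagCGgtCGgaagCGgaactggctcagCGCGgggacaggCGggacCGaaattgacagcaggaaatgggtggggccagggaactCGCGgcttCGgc
Peaks reached these stretches to very different extents. In WT replicate 1 none of the 6 had a base under a peak, although all 6 genes were marked in that library. In WT replicate 2 the covered part was 125 bp for Ndufb4, 146 for Sdhb, 169 for Uqcr10, 183 for Cox8b, 87 for Cox7a1 and 0 for Atp5c1. In WT replicate 3, the longest list, all 250 bp were covered at Sdhb and Cox7a1, 231 at Uqcr10, 193 at Cox8b, 146 at Atp5c1 and 26 at Ndufb4. In HOM replicate 1 the covered part was 165 bp for Sdhb, 166 for Uqcr10, 125 for Cox8b, 66 for Cox7a1, 16 for Ndufb4 and 0 for Atp5c1, and in HOM replicate 3 Cox8b alone had any, 64 bp.

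Respiratory chain genes were marked more often than protein-coding genes at large in every library with a marked member. Among the 96 members, 48, 82 and 86 were marked in WT replicates 1, 2 and 3, which is 50%, 85.4% and 89.6%. The shares over all protein-coding genes in the same libraries were 11.7%, 32.2% and 42.7%. In HOM replicates 1, 2 and 3 the counts were 75, 0 and 36 members, or 78.1%, 0% and 37.5%, against 22.9%, 0.384% and 8.08% of all genes. The difference between the shares was between 29.4 and 55.2 percentage points in the 5 libraries with marked members, and -0.384 in HOM replicate 2. Against the 12875 protein-coding genes with lengths like those of the members, the mean difference over 6 libraries was 36.1 points, beside 37.1 against all genes. With members and other genes limited to those whose windows touch no other gene, it was 39.8 points. No test is attached to these shares, since genes are not replicates.

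Marked members recurred. As many as 26 of the 96 (27.1%) were marked in 5 libraries, compared with 4.96% of all genes marked in at least 5, and 9 members (9.38%) were marked in none, compared with 55.6% of all genes. A further 30 members were marked in 4 libraries, 19 in 3, 8 in 2 and 4 in 1. The 48 members marked in WT replicate 1 were all marked in WT replicates 2 and 3 as well, and 47 of them in HOM replicate 1. HOM replicate 3 shared 34 of its 36 members with HOM replicate 1, which is 94.4% of the former and 45.3% of the latter. It shared 27 with WT replicate 1, or 75% of its own members and 56.3% of those of WT replicate 1. In these libraries shorter lists mostly held subsets of the members found by longer ones.

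**Figure D1:**
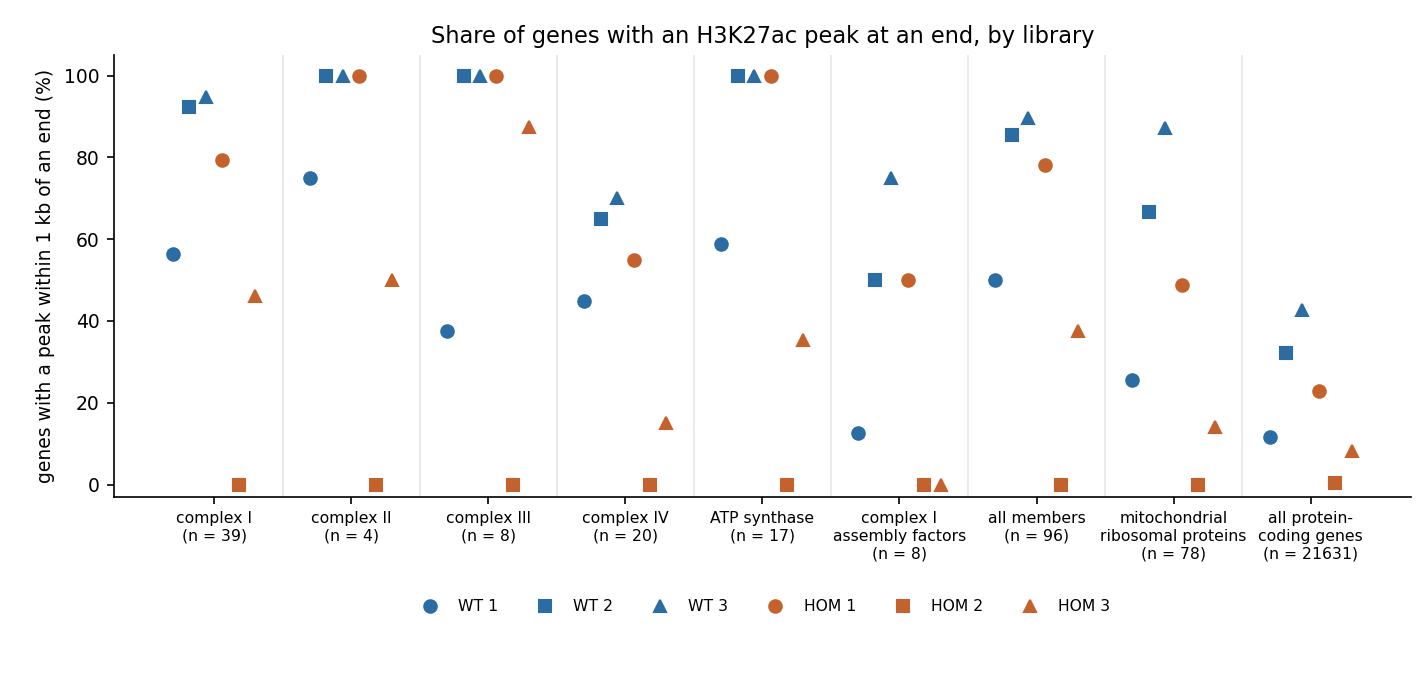
Percentage of genes with a peak within 1 kb of a gene end, for each complex, the assembly factors, all members, mitochondrial ribosomal protein genes and all protein-coding genes. Each point is 1 library (blue for WT, orange for HOM). All points of HOM replicate 2 lie at or near 0, and in the other libraries the points of all members (37.5% to 89.6%) lie above those of all protein-coding genes (8.08% to 42.7%).

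Complex I oxidises NADH and is the largest complex of the chain. Of its 39 genes, 22, 36 and 37 were marked for WT and 31, 0 and 18 for HOM. Its nuclear core subunits hold the flavin and the iron-sulphur clusters or line the quinone site. Ndufs7, which carries a cluster next to the quinone site, had 644, 679 and 1023 bp covered in WT and 512, 0 and 320 bp in HOM. Ndufv1, the subunit that binds flavin and NADH, had 505, 731 and 1300 bp in WT and 497, 0 and 0 bp in HOM. Every WT value of both genes lay above every HOM value, by a small margin for Ndufv1 in WT replicate 1. Over the whole gene and 1 kb on each side this did not hold. There Ndufs7 had 1331 bp in WT replicate 1 and 1788 bp in HOM replicate 1, and Ndufv1 had 505 and 796 bp. Ndufs3 had 342, 1518 and 1677 bp in WT and 612, 0 and 390 bp in HOM, so its lowest WT value lay below 2 HOM values. Ndufs1, the subunit with most iron-sulphur clusters, had 319, 548 and 1206 bp in WT and 733, 0 and 319 bp in HOM, and here too the groups overlapped. The core subunit genes Ndufv2 and Ndufs8 were marked in 5 and 4 libraries.

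Among the accessory subunits of complex I, Ndufb4 and Ndufc2 led by rank. Both belong to the membrane arm. Ndufb4 had 987, 1283 and 1725 bp covered in WT and 868, 0 and 349 bp in HOM, and all WT values were above all HOM values. With the gene body counted, Ndufb4 had 987 bp in WT replicate 1 and 1165 bp in HOM replicate 1, so the groups overlapped. Ndufc2 had 728, 903 and 1367 bp in WT and 792, 0 and 568 bp in HOM, with WT replicate 1 below HOM replicate 1. Ndufb5, the third by the same order, had 623, 1475 and 2417 bp in WT and 1324, 0 and 426 bp in HOM. Ndufs4, an accessory subunit whose loss causes Leigh syndrome, had the longest mean covered length of complex I over the 5 libraries without HOM replicate 2, with 517, 2704 and 2918 bp in WT and 1111, 0 and 249 bp in HOM. Its windows hold both ends of a gene of 100300 bp. Only 320, 833 and 1179 bp (WT) and 602, 0 and 0 bp (HOM) of it lay within 1 kb of the start site, and the rest lay farther from it. Ndufb4b and Ndufb4c, further genes with the Ndufb4 name, had no peak in any library. The 8 assembly factor genes, whose products help build complex I and are not part of it, were marked at 1, 4 and 6 for WT and 4, 0 and 0 for HOM. Ndufaf2 was marked in none, and Ndufaf3 led with 4 libraries.

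Complex II, succinate dehydrogenase, is shared with the tricarboxylic acid cycle, and all of its subunits are nuclear. Sdhb, the iron-sulphur subunit, had 222, 1432 and 1533 bp covered in WT and 891, 0 and 206 bp in HOM. The membrane anchor gene Sdhc was close to it, with 180, 1478 and 1525 bp in WT and 871, 0 and 201 bp in HOM. Sdhd, the other anchor, had 530, 940 and 1378 bp in WT and 866, 0 and 0 bp in HOM. Sdha, the flavoprotein, was marked in 3 libraries, with 0, 690 and 1531 bp in WT and 394, 0 and 0 bp in HOM. For each of the 4 genes the WT and HOM values overlapped, because HOM replicate 1 exceeded WT replicate 1.

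Complex III passes electrons from ubiquinol to cytochrome c. All 8 of its genes were marked in WT replicates 2 and 3 and in HOM replicate 1. In WT replicate 1 only Uqcrc2, Uqcr10 and Uqcrh were marked, whereas HOM replicate 3, whose list is shorter, had 7 of the 8. Complex III was the only complex with more marked genes in HOM replicate 3 than in WT replicate 1, and that difference between single libraries was not tested. With peaks over the gene body counted, the difference was smaller, at 6 genes in WT replicate 1 and 7 in HOM replicate 3. Uqcrc2, a core protein of the matrix side, had 603, 1512 and 1780 bp covered in WT and 1014, 0 and 218 bp in HOM. Uqcrc1, its partner, had 0, 969 and 1323 bp in WT and 734, 0 and 454 bp in HOM. Uqcrfs1, the Rieske iron-sulphur protein, had 0, 944 and 1393 bp in WT and 438, 0 and 496 bp in HOM. The small subunit gene Uqcr10 had the longest covered length of the complex in WT replicate 3, with 247, 1166 and 2273 bp in WT and 928, 0 and 279 bp in HOM. Uqcrh, the hinge protein of cytochrome c1, had 355, 892 and 1452 bp in WT and 692, 0 and 171 bp in HOM. Uqcr11 was the one not marked in HOM replicate 3.

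ATP synthase was marked throughout in the longer lists: all 17 genes in WT replicates 2 and 3 and in HOM replicate 1, 10 in WT replicate 1 and 6 in HOM replicate 3. The genes of its catalytic head differed in how often they were marked. Atp5c1, the gamma subunit that turns inside the head, had 216, 753 and 1499 bp covered in WT and 553, 0 and 580 bp in HOM. Atp5b, the catalytic beta subunit, had 0, 1386 and 2762 bp in WT and 724, 0 and 0 bp in HOM. Atp5a1, the alpha subunit, had 0, 537 and 1516 bp in WT and 938, 0 and 0 bp in HOM. So beta had the longest covered length of the head genes in WT replicate 3 and yet no peak at its ends in WT replicate 1. With the gene body counted, Atp5b had 208 bp under a peak in WT replicate 1.

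The rotor ring of ATP synthase is built from copies of subunit c, which Atp5g1, Atp5g2 and Atp5g3 encode as the same mature protein with different import signals. These 3 genes were marked unequally. Atp5g2 had 812, 1497 and 1879 bp covered in WT and 981, 0 and 0 bp in HOM, and Atp5g3 had 371, 688 and 844 bp in WT and 790, 0 and 0 bp in HOM. Atp5g1 had 0, 1031 and 1363 bp in WT and 166, 0 and 0 bp in HOM. The start site of Atp5g3 in the promoter table lies inside its annotated span, and within 1 kb of it Atp5g3 had 889, 1335 and 1617 bp in WT and 979, 0 and 0 bp in HOM. Its peaks stood high by fold, with a mean fold percentile where marked of 97.0, beside 92.9 for Atp5g2 and 57.2 for Atp5g1. Here a fold percentile is the rank, from 0 to 100 within its own list, of the authors' fold enrichment for the highest peak at a gene. The authors' fold for Atp5g3 was 6.86, 8.46 and 12.1 in WT replicates 1, 2 and 3 and 8.68 in HOM replicate 1. Atp5l, a subunit of the membrane part, had 302, 1276 and 1953 bp in WT and 1233, 0 and 883 bp in HOM, the last being the longest covered length of any member in HOM replicate 3. Atp5j, of the stalk, had 354, 1272 and 2390 bp in WT and 867, 0 and 378 bp in HOM.

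**Figure D2:**
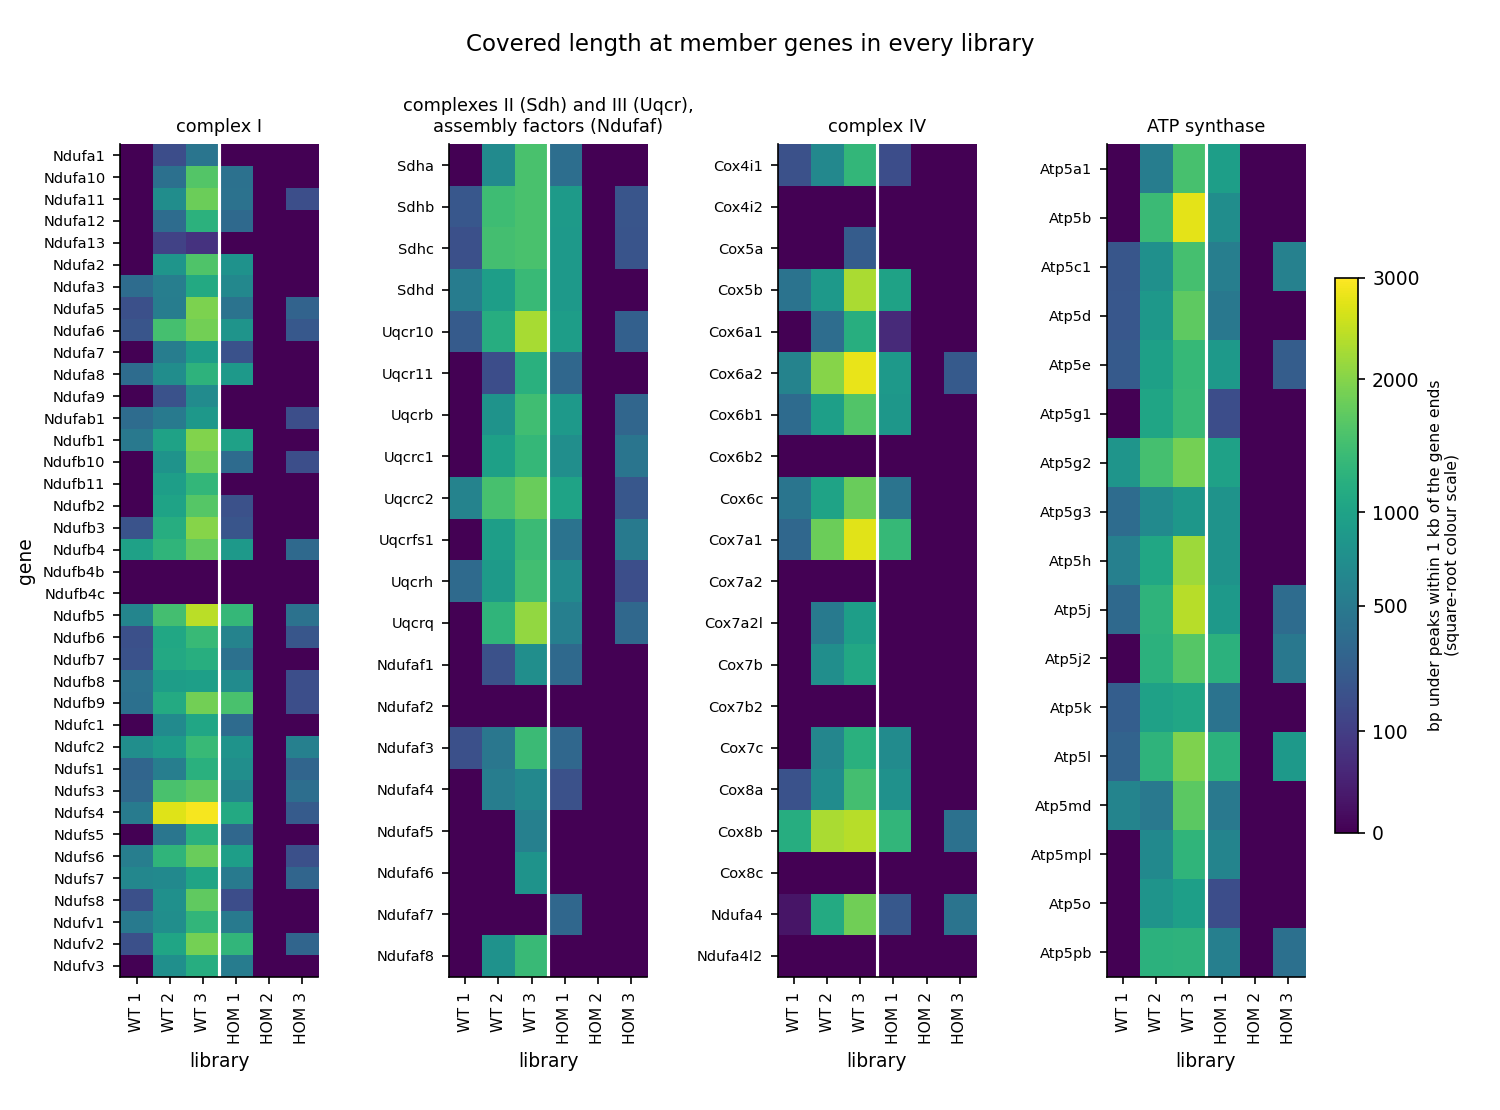
Covered length (bp under peaks within 1 kb of the gene ends, square-root colour scale) for the genes named at the left (rows) in each of the 6 libraries (columns, with a white line between WT and HOM). WT replicate 3 is the brightest column and HOM replicate 2 is dark throughout. Rows that are dark in all columns are genes without a peak at an end, such as Cox8c.

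Complex IV, cytochrome c oxidase, hands the electrons to oxygen. Of its 20 genes, 9, 13 and 14 were marked for WT and 11, 0 and 3 for HOM, and 6 were marked in no library, compared with 2 of complex I and none of complexes II and III and ATP synthase. Without the 8 genes of muscle and other restricted isoforms, 6, 10 and 11 of 12 were marked for WT and 8, 0 and 1 for HOM. The single one left in HOM replicate 3 was Ndufa4, with 9, 1118 and 1843 bp covered in WT and 228, 0 and 442 bp in HOM. Cox4i1, the ubiquitous form of subunit IV, had 183, 656 and 1308 bp in WT and 166, 0 and 0 bp in HOM. Cox5b had 439, 864 and 2282 bp in WT and 998, 0 and 0 bp in HOM. Cox5a was marked at its ends in WT replicate 3 alone, with 257 bp. The RefSeq promoter table places the start site of Cox5a inside the annotated span, at position 57521232 of chromosome 9. Within 1 kb of that site Cox5a had 0, 804 and 1667 bp in WT and 479, 0 and 0 bp in HOM.

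The muscle isoform genes of complex IV stood out among all members by covered length at their ends. Cox8b had rank 1, Cox6a2 rank 3 and Cox7a1 rank 5 of the 96 by mean covered length over the 5 libraries without HOM replicate 2. Cox8b, a subunit VIII form of heart and skeletal muscle, had 1161, 2283 and 2386 bp covered in WT and 1297, 0 and 421 bp in HOM, a mean of 1509.6 bp. Cox6a2 had 595, 2010 and 2814 bp in WT and 884, 0 and 243 bp in HOM, a mean of 1309.2 bp. Cox7a1 had 334, 1802 and 2738 bp in WT and 1350, 0 and 0 bp in HOM, a mean of 1244.8 bp. The median of this mean over the 87 members with a peak was 635.6 bp. The 3 genes are short, and in WT replicate 3 peaks covered 68.1%, 96.0% and 70.9% of the windows of Cox8b, Cox6a2 and Cox7a1. In all 3 the values of WT and HOM overlapped. Ndufs4, at rank 2 with 1499.8 bp, and Ndufb5, at rank 4 with 1253 bp, were the others among the first 5.

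Their ubiquitous counterparts were covered less. Cox6a1 had 0, 381 and 1179 bp in WT and 42, 0 and 0 bp in HOM, and Cox8a had 190, 709 and 1469 bp in WT and 763, 0 and 0 bp in HOM. In each of the 5 libraries other than HOM replicate 2, the value of Cox6a2 was above that of Cox6a1 and the value of Cox8b was above that of Cox8a. Cox7a2 had no peak at its annotated ends in any library, but its start site in the promoter table lies inside the annotated span, at position 79759853 of chromosome 9. Within 1 kb of that site Cox7a2 had 0, 837 and 1012 bp in WT and 645, 0 and 0 bp in HOM. Measured the same way, Cox7a1 had 189, 1021 and 1743 bp in WT and 938, 0 and 0 bp in HOM. By this measure Atp5l had more, with 302, 1276 and 1953 bp in WT and 1233, 0 and 883 bp in HOM. The place of Cox7a1 among the members thus depends on the window. Of the muscle isoform genes, 3, 3 and 3 were marked for WT and 3, 0 and 2 for HOM, and of the ubiquitous ones 1, 2 and 2 for WT and 2, 0 and 0 for HOM. With peaks anywhere over the gene counted, the ubiquitous genes came to 1, 3 and 3 for WT and 3, 0 and 0 for HOM. Counted so, all 3 genes of either kind had a peak in the 3 longest lists, and the higher count for muscle isoforms rested on WT replicate 1 and HOM replicate 3. Over the 6 lists as deposited, the mean difference in marked share was 38.9 percentage points at gene ends and 22.2 with the gene body counted. Within 1 kb of tabulated start sites, where Cox6a2 has no entry, it was 19.4. With HOM replicate 2 left out it was 46.7 at gene ends, and 66.7 when the lists were also cut to equal length. As at most members, the windows of the muscle isoform genes reach neighbouring genes. These are Itgad beside Cox6a2, Capns1 beside Cox7a1 and Psmd13 beside Cox8b, and the part of these neighbours in the values was not tested.

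Other isoforms of restricted expression were unmarked in all 6 libraries: Cox4i2, of lung and oxygen-poor conditions, the testis forms Cox6b2, Cox7b2 and Cox8c, and Ndufa4l2, which hypoxia induces. Over the whole gene and 1 kb on each side, Cox4i2 had 1 peak in WT replicate 3 (219 bp) and 1 in HOM replicate 3 (171 bp), and the other 4 had none. Thus 7 of the 96 members, these 4 and Ndufb4b, Ndufb4c and Ndufaf2, had no peak at their ends or over the body in any library.

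**Figure D3:**
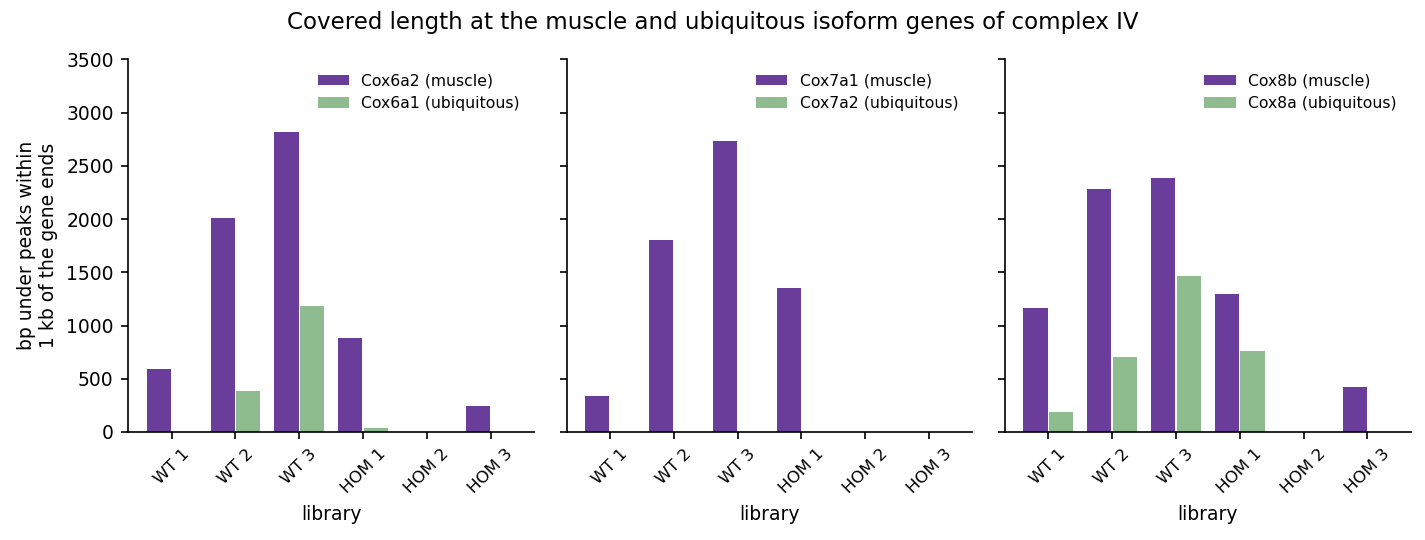
Covered length (bp under peaks within 1 kb of the gene ends) at 3 pairs of complex IV isoform genes in each of the 6 libraries, with purple bars for the muscle and green bars for the ubiquitous gene. Cox8b is above Cox8a, and Cox6a2 above Cox6a1, in every library but HOM replicate 2, where all are 0, and Cox7a2 is 0 throughout, with its start site inside its annotated span.

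Peaks were found at the start of more members than at the far end, and at the start they lay mostly downstream. For the 64 members with a single tabulated start site and well separated ends, the start was marked in 32, 59 and 61 cases in WT and 54, 0 and 23 in HOM. The far end was marked in 1, 11 and 23 cases in WT and 8, 0 and 1 in HOM. At all 12421 protein-coding genes of this kind, the start was marked at 12.4%, 34.2% and 45.4% for WT and 24.4%, 0.354% and 8.23% for HOM, against 50%, 92.2% and 95.3% for WT and 84.4%, 0% and 35.9% for HOM at the members. The far end was marked at 1.80%, 6.48% and 10.1% of all genes and 1.56%, 17.2% and 35.9% of members for WT, and at 3.97% and 1.36% of all genes and 12.5% and 1.56% of members for HOM replicates 1 and 3. In WT replicates 2 and 3 and HOM replicate 1, then, far ends were also marked at a higher share of members than of all genes, which was not tested. Around the start site, coverage among the members with a peak there was highest at 500 to 600 bp downstream in WT replicate 1 (51.6% of bases under peaks), at 600 to 700 bp in WT replicates 2 and 3 (72.8% and 96.6%) and at 300 to 400 bp in HOM replicates 1 and 3 (57.2% and 39.1%). The highest values upstream were 18.2%, 48.4% and 68.8% for WT and 29.1% and 15.8% for HOM replicates 1 and 3. Directly before the start site, in the last 100 bp, coverage dropped to 0.243%, 17.2% and 44.8% in WT and to 7.43% and 0.875% in these HOM libraries.

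This lean to the downstream side was larger at the members than at protein-coding genes at large. Of the covered bp within 1 kb of the start site, 78.5%, 70.3% and 65.8% lay downstream at the members for WT, and 76.8% and 84.9% for HOM replicates 1 and 3. For all protein-coding genes with a peak there, the downstream share was 52.0%, 50.5% and 52.2% for WT and 51.5% and 49.3% for HOM replicates 1 and 3. Counted by gene, 31 of 37, 57 of 66 and 63 of 68 members in WT, and 46 of 60 and 19 of 24 in HOM, had more bp downstream than upstream. At members whose windows touch no other protein-coding gene, 86.2%, 71.2% and 68.5% of the covered bp lay downstream for WT and 78.0% and 90.1% for HOM replicates 1 and 3, each above the value over all members with a start site. With 5 lists of equal length the downstream share over all members with a start site was 87.9%, 78.0% and 75.9% for WT and 82.0% and 84.9% for HOM. Genes marked in 5 or more libraries gave 51.0%, 50.7% and 51.3% for WT and 51.8% and 47.5% for HOM, close to all genes. Mitochondrial ribosomal protein genes gave 62.9%, 52.9% and 56.7% for WT and 60.6% and 28.2% for HOM, the last from 10 genes. The tricarboxylic acid cycle genes came nearest to the members where at least 10 of them had a peak, with 67.5% and 64.7% in WT replicates 2 and 3. The measure was chosen after the profile was seen, and no test is attached to it.

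**Figure D4:**
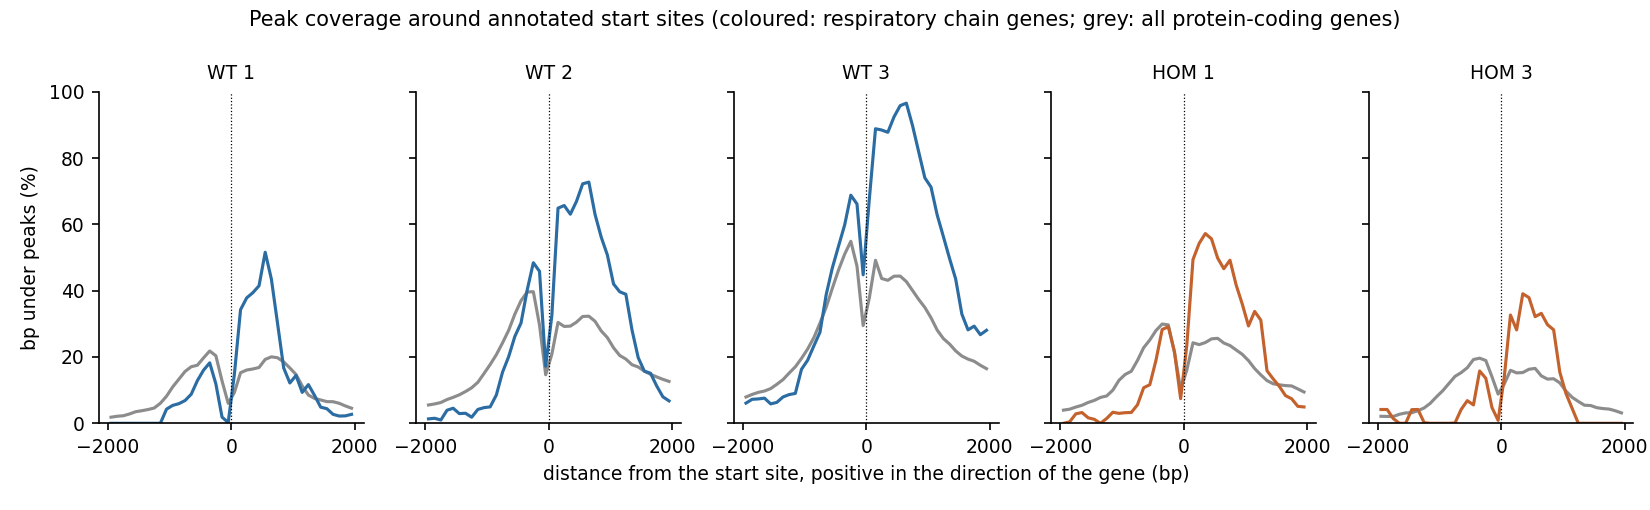
Percentage of bases under peaks in bins of 100 bp from 2 kb before to 2 kb after the start site, among genes with a peak within 1 kb of it, in the 5 libraries with marked members. Coloured lines are respiratory chain genes and grey lines all protein-coding genes. The coloured lines peak after the start site (39.1% to 96.6%) well above their highest point before it, while the grey lines are of similar height on both sides.

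Peaks at the members covered more than at other marked genes, while their rank by fold had no stable direction. The median covered length of marked members was 361, 878 and 1414.5 bp in WT and 659 and 313 bp in HOM replicates 1 and 3, against 245, 493 and 724 bp in WT and 355 and 239.5 bp in HOM over all marked protein-coding genes. The ratio of these medians ran from 1.31 to 1.95, with a mean of 1.67, and the mean was 1.27 with lists of equal length. The widest peak of a member had a median width of 293.5, 594.5 and 1302.5 bp in WT and 419 and 235.5 bp in HOM, against 242, 370 and 518 bp in WT and 310 and 235 bp in HOM. In HOM replicate 3 the widths were thus nearly equal. The median fold percentile of marked members was 55.3, 84.2 and 91.8 for WT and 72.6 and 61.6 for HOM replicates 1 and 3, and that of all marked genes 55.3, 67.3 and 77.7 for WT and 61.4 and 61.6 for HOM. Fold takes few distinct values in these lists, so many peaks share a percentile, and in WT replicate 1 and HOM replicate 3 the medians were equal. The mean difference over the 5 libraries was 8.44 points. It was 0.80 over the gene body, -0.10 with the stronger 50% of each list and -4.15 with lists of equal length, so no direction can be given to it. By complex, the median covered length in WT replicate 3 was 1363 bp for complex I, 1528 for complex II, 1444 for complex III, 1534.5 for complex IV and 1516 for ATP synthase. Relative to their size these medians varied more in the other libraries. They ran from 222 bp (complex II) to 376.5 (complex I) in WT replicate 1 and from 773.5 (complex I) to 1186 (complex II) in WT replicate 2. The range was 597 (complex I) to 868.5 (complex II) in HOM replicate 1 and 203.5 (complex II) to 443.5 (ATP synthase) in HOM replicate 3. The order of the complexes was thus not stable. These medians are over marked genes only, which for complex II were 3 in WT replicate 1 and 2 in HOM replicate 3.

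Genes of neighbouring functions were marked to different degrees. Of 14 genes of the tricarboxylic acid cycle, which feeds the chain with NADH and succinate, 11, 13 and 14 were marked for WT and 11, 0 and 5 for HOM. Among 47 genes of electron carriers and other assembly factors, 18, 35 and 44 were marked for WT and 30, 1 and 18 for HOM, and the one in HOM replicate 2 was Cox17, a copper chaperone of complex IV. Of 78 mitochondrial ribosomal protein genes, whose products translate the subunits encoded by mitochondrial DNA, 20, 52 and 68 were marked for WT and 38, 0 and 11 for HOM. Cytosolic ribosomal protein genes came to 12, 56 and 79 of 90 for WT and 41, 0 and 1 for HOM. In the lists as deposited, the cycle's share was above that of the members in WT replicates 1, 2 and 3 (78.6%, 92.9% and 100% against 50%, 85.4% and 89.6%) and close to it in HOM replicate 1 (78.6% against 78.1%). In 5 lists of equal length, the cycle came to 71.4%, 50% and 78.6% for WT and 28.6% and 35.7% for HOM replicates 1 and 3. The members there had 40.6%, 51.0% and 67.7% for WT and 42.7% and 37.5% for HOM, so the order was not stable. In the short list of HOM replicate 3 the shares were 37.5% for the members, 35.7% for the cycle, 38.3% for carriers and other assembly factors, 14.1% for mitochondrial and 1.11% for cytosolic ribosomal proteins.

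Promoters of the members were rich in CpG, and 2 muscle isoform genes had the lowest content. In the 300 bp from 250 bp before to 50 bp after the start site, the ratio of observed to expected CpG had a median of 0.831 over the 78 members in the table and 0.617 over 17274 protein-coding genes. Genes marked in 5 or more libraries had a median of 0.762 and genes marked in none 0.323. Cox8b had the lowest ratio of the 78 members, 0.115, and Cox7a1 the second lowest, 0.333, although both genes were among the longest in covered length at the gene ends. The ubiquitous genes Cox8a, Cox7a2 and Cox6a1 had ratios of 0.842, 0.833 and 1.08. Cox6a2 has no entry in the table.

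**Figure D5:**
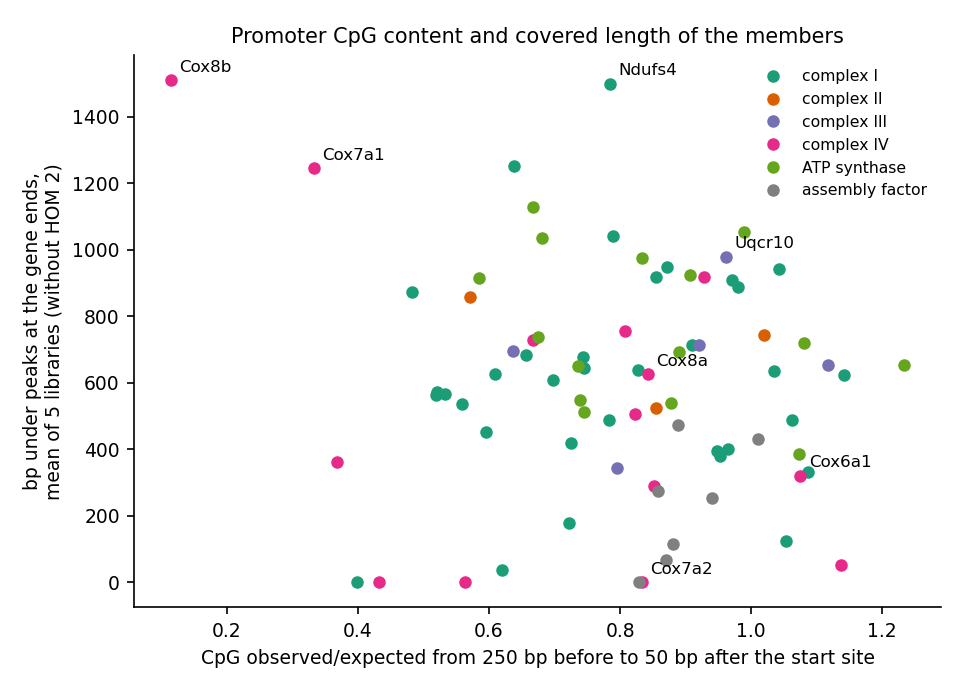
Ratio of observed to expected CpG from 250 bp before to 50 bp after the start site (horizontal axis) against mean covered length over the 5 libraries without HOM replicate 2 (vertical axis, bp) for the 78 members with an entry, coloured by complex. Cox8b and Cox7a1 stand alone at the upper left, with ratios of 0.115 and 0.333 and means of 1509.6 and 1244.8 bp.

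Binding motifs of factors known to act at respiratory chain promoters were counted in the same 300 bp on both strands, as exact matches. NRF1, a regulator of nuclear genes for mitochondria, was searched as GCGCATGCG and found at 10 of 78 members (12.8%) and at 2.63% of all promoters in the table. CCGGAAG, the ETS motif bound by GABP, was present at 19 members (24.4%) and 13.1% of all promoters. YY1, as AAGATGGCG, had 8 members (10.3%) and 2.15% of all. The motif of the oestrogen-related receptors, TCAAGGTCA, occurred at 2 members, Atp5g3 and Sdhd (2.56%), and 0.382% of all, and its shorter part AAGGTCA, which includes those matches, at 8 (10.3%) and 4.72% of all. CCGCCC, bound by SP factors, was at 35 members (44.9%) and 49.8% of all. TATAAA was at 8 (10.3%) and 14.9%, the E-box CAGCTG at 6 (7.69%) and 17.6%, and the MEF2 motif CTAAAAATA at 0 and 0.480%. Shares differed at the 874 promoters of genes marked in 5 or more libraries, some members among them. There NRF1 came to 4.81%, the ETS motif to 15.9%, YY1 to 3.89%, TCAAGGTCA to 0.343% and AAGGTCA to 6.64%. CCGCCC came to 64.5%, TATAAA to 9.61%, CAGCTG to 19.8% and CTAAAAATA to 1.37%. In the promoter stretches shown above, Ndufb4 holds AAGGTCA at positions -55 to -49 and CCGCCC at -110 to -105, counted from the start site. Sdhb holds CCGCCC at -152 to -147, -132 to -127 and -104 to -99. Cox8b holds CAGCTG at -19 to -14, and the stretches of Uqcr10, Cox7a1 and Atp5c1 hold none of the 9 motifs. These matches describe letters and no binding was measured.

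Between genotypes, fewer members were marked in HOM on average, as was true of all genes. The marked share of members was 75.0 ± 21.8% (SD, n = 3) for WT and 38.5 ± 39.1% (SD, n = 3) for HOM, which differ by -36.5 percentage points, and -17.2 without HOM replicate 2. For all protein-coding genes it was 28.8 ± 15.8% (SD, n = 3) for WT and 10.5 ± 11.5% (SD, n = 3) for HOM, which differ by -18.4 points, and -13.3 without HOM replicate 2. HOM replicate 1 had more marked members (75) than WT replicate 1 (48), so the groups overlapped. With 3 libraries per group, a two-sided exact permutation p cannot go below 0.1. When HOM replicate 2 was omitted and each of the 5 remaining lists kept its 15184 strongest peaks, the members marked were 39, 49 and 65 for WT and 41 and 36 for HOM, beside 8.65%, 10.8% and 14.2% of all protein-coding genes for WT and 9.68% and 8.08% for HOM in the same lists. As shares the members came to 40.6%, 51.0% and 67.7% for WT and 42.7% and 37.5% for HOM, in the same order of libraries as all genes. The total under peaks then still differed, at 5.09, 14.1 and 24.1 Mb for WT and 8.37 and 4.40 Mb for HOM, so genotype and the extent of the lists cannot be told apart.

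No single member separated the genotypes by the test. Covered length was compared gene by gene by two-sided exact permutation at the 9612 protein-coding genes with a peak in at least 1 library, with Benjamini-Hochberg adjustment. The smallest adjusted p was 0.654, so 0 genes (0%) were called, and 0 had an unadjusted p below 0.05, which this design cannot reach. Covered length was higher in every WT than in every HOM library at 7 of the 87 members with a peak, beside 6.4% of the 9612 genes, and the reverse occurred at 0 of them. The 7 were the core subunit genes Ndufs7, Ndufs8 and Ndufv1, the accessory genes Ndufb4 and Ndufab1, and Cox4i1 and Cox6c. Ndufs7, Ndufv1 and Ndufb4 did not keep this order when peaks over the gene body were counted. Without WT replicate 1 the count at gene ends was 67 of 87 (77.0%), beside 58.9% of all genes with a peak. Without HOM replicate 1 it was 35 of 86 (40.7%), beside 19.9%, so the count rests on which libraries enter. It was 8 of 87 without WT replicate 2 (7.93% of all genes), 7 of 84 without WT replicate 3 (8.33%), and 7 of 87 without HOM replicate 2 (6.41%) or HOM replicate 3 (6.95%). No member was marked in all 3 WT and no HOM libraries, a pattern met by 1.1% of protein-coding genes, and none in all HOM and no WT libraries, which no gene (0%) met.

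The 3 X-linked members were marked in the same libraries. Ndufa1, Ndufb11 and Cox7b were marked in WT replicates 2 and 3 and in no other library. Covered lengths in these 2 libraries were 165 and 456 bp at Ndufa1, 946 and 1312 bp at Ndufb11 and 729 and 1072 bp at Cox7b. All X-linked protein-coding genes were marked less often than autosomal ones, at 0.725%, 10.6% and 21.9% for WT and 3.93%, 0.104% and 0.621% for HOM, against 12.2%, 33.2% and 43.7% and 23.8%, 0.397% and 8.43% on autosomes. Peaks on the Y chromosome below 80 Mb numbered 111, 2 and 5 for WT and 112, 1 and 1 for HOM. Sex is not given in the labels, its part in these values was not tested, and on chromosomes 1 to 19 alone the genotype difference of the members was -35.5 points.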

How the data were processed

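H3K27ac CUT&RUN was read from 6 peak lists, 3 labelled WT and 3 labelled HOM, grouped and numbered by the sample titles. Per the submitters' processing notes, BWA, MACS2 and the build mm10 were used; their versions are not given in the sources used here. In the deposited lists each peak has a score, a fold enrichment over background, a −log10 p-value and a −log10 q-value, which the authors' caller gave for each library separately. They were used only to rank and filter peaks within a list. No read counts are in the lists, so depth is unknown and no interval for counting error is given.

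Genes, ends and start sites came from RefSeq tables of GRCm38.p6, the assembly of mm10. The gene table has no strand. Start sites and strand came from the promoter table, which has 78 of the 96 members. A gene was marked by a peak overlapping the 1 kb around either end by at least 1 bp. Members, gene lists and the rule for named genes were chosen with earlier results of these data known. Every gene was counted by complex. Named genes were complex II, the core subunits, the isoform pairs, the c-subunit genes, the 3 most often marked per complex, the unmarked ones and the 3 longest in covered length; one of them is not reported here. Ndufaf3, the X-linked genes, Ndufb11 among them, and the genes with no overlap between genotypes were named after their values were seen.

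Genes were compared between genotypes by two-sided exact permutation of covered length with Benjamini-Hochberg adjustment. Alternatives were windows of 500 bp and 2 kb, the gene body, stronger peaks, shortened lists, 100 bp of overlap, each library left out, the replicate block, the rank by −log10 q, no assembly factors and genes of similar length. Start site windows, genes touching no other gene, chromosomes 1 to 19 alone and the downstream share were chosen after seeing the data. Window counting was tested on simulated data (4000 windows, 0 mismatches). Python 3.11.15, numpy 2.4.6, pandas 2.3.3 and matplotlib 3.10.9 were used.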

Additional observations from a re-analysis of the deposited data

How the results depend on the processing

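The alternatives were applied to the members' shares, covered length and fold percentile, and 99 values stayed within the spread between libraries or within 1.5 times of a count, 17 moved and 2 turned. No test here can pass the threshold of 0.05, so values that stayed are no sign of significance. Some of the 99 could not have moved. The number of called genes had to be 0 under every setting. Leaving out HOM replicate 2, which has no marked member, could not change the fold percentile difference or the ratio of covered lengths. The number of values that stayed is thus no measure of robustness. For values that moved or turned the cause was not tested, unless stated. With every list limited to the 1462 peaks of the shortest, few genes remain: the difference in marked share between HOM and WT was -1.04 percentage points, that between members and all genes 1.47 points, and that between muscle and ubiquitous isoforms 5.56 points. When HOM replicate 2 was omitted and 15184 peaks were kept in each other list, the isoform difference was 66.7 points, the fold percentile difference -4.15 and the ratio of covered lengths 1.27. The fold percentile difference was -0.10 with the stronger 50% of each list. Over the gene body it was 0.80, beside 8.44 at gene ends, and counts as stayed because its spread between libraries is 7.96. The ratio of covered lengths was 1.33 with windows of 500 bp and 1.28 over the gene body, and it ran from 1.60 to 1.77 when each library was left out.

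Members marked in all libraries of 1 genotype only numbered 2 with the stronger 50% of each list and 2 with lists of equal length, and 0 to 21 when each library was left out (21 without HOM replicate 1, 7 without WT replicate 1 and 1 without HOM replicate 3, with fewer libraries making the pattern easier to meet). Members with more covered length in every WT than in any HOM library numbered 4 with windows of 2 kb, 2 with the stronger 50% and 0 with lists limited to the shortest, and 7 to 67 when each library was left out. Except for covered length with a library left out (given above), no share over all protein-coding genes is at hand under these settings. These counts therefore say nothing particular to the members. The HOM minus WT difference in marked share ran from -56.3 to -17.2 points when each library was left out.

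Same-numbered libraries did not deviate together (correlations of -0.301, -0.312 and -0.0695), and no library correlated best with its own number. With 3 libraries per group, these values cannot settle whether same-numbered libraries were prepared together. Both libraries numbered 1 had many Y chromosome peaks below 80 Mb, 111 for WT and 112 for HOM. The replicate block cannot change the difference in marked share (-36.5), which is the same difference of means. With a smallest possible sign-flip p of 0.25 it could call no gene, and it called 0. Fold percentile and covered length have no value with lists limited to the shortest, where too few members are marked. Depth cannot be read from the lists, so an unmarked gene in a short list is not shown to lack acetylation.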
